A study of Mus musculus with 2 samples.

Results

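Conventional type 2 dendritic cells (cDC2) of tumor-bearing mouse liver were selected from single-cell RNA-Seq data by their own transcripts. A transcript is counted through its unique molecular identifier (UMI). Cells were kept with 500 to 5000 detected genes and at most 10% of UMIs from mitochondrial genes. A kept cell was taken as cDC2 with a UMI of *Cd209a* or *Flt3*, UMIs of at least 3 of the 5 markers *Cd209a*, *Flt3*, *Clec10a*, *Mgl2* and *Cbfa2t3*, at most 2 UMIs over the complement genes *C1qa* and *C1qb*, and no UMI of *Xcr1*, *Clec9a*, *Fscn1*, *Siglech*, *Cd3e* or *Cd79a*. These limits selected 217 of 31891 kept cells, themselves part of 38848 cell barcodes. Because measured transcripts chose the cells, the levels of these genes, and the contrast of the selected cells with the rest, are descriptions and were not tested.

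The tumors were cholangiocarcinomas (CCAs) induced by hydrodynamic tail vein injection (HDTVI), which carries plasmids into hepatocytes, here for an activated Notch receptor (NICD) and a membrane-bound active AKT (myr-AKT). All animals of both groups carried doxycycline-inducible shRNA against *Yap1* and *Taz* (*Wwtr1*), called shYT, which was switched on at day 25 through a ubiquitously expressed CAG-rtTA3 transactivator and so also acts in immune cells. The PBS group received PBS, the anti–PD-1 group received the antibody clone RMP1-14 on days 26, 29 and 32, and the livers of both were taken on day 33. One library was made per group, so the data ask how cDC2 of YAP/TAZ-depleted tumors differed between these 2 libraries, and they do not compare YAP/TAZ depletion itself. The study used several animals per group, the sources used here do not give their age, the sex of those in each library or which shRNA line they carried, and cells could not be assigned to animals. *Yap1* and *Wwtr1* had 0 UMIs in the selected cells of both libraries, which gives no check of the knockdown in them.

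Dendritic cells take up antigen, process it and display it to T cells on MHC molecules. The conventional lineage has 2 main branches. cDC1, marked by *Xcr1* and *Clec9a*, are known for presenting antigen from dead cells to CD8 T cells, whereas cDC2 depend on the transcription factor IRF4, carry C-type lectins such as CD209a and the MGL proteins, and are known above all for MHC class II presentation to CD4 T cells. In inflamed tissue cDC2 take on interferon-response genes and can then be hard to tell from monocyte-derived cells.

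cDC2 made up a smaller share of the cells in the anti–PD-1 library. The PBS library held 176 cDC2 among 15531 kept cells, or 1.13% (0.973 to 1.31), and the anti–PD-1 library held 41 among 16360, or 0.251% (0.180 to 0.340). The share was 4.52-fold higher in the PBS library, and the difference was -0.883 percentage points (-1.08 to -0.699). Among cells with a UMI of *Ptprc* (CD45, the leukocyte marker), the shares were 1.46% and 0.291%. cDC1, selected by their own markers, stood at 0.470% and 0.141%, a ratio of 3.34 in the same direction. All intervals here are exact 95% intervals for counting error, or are combined from them. With no replicate library, no difference could be set against the spread between animals.

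**Figure D1:**
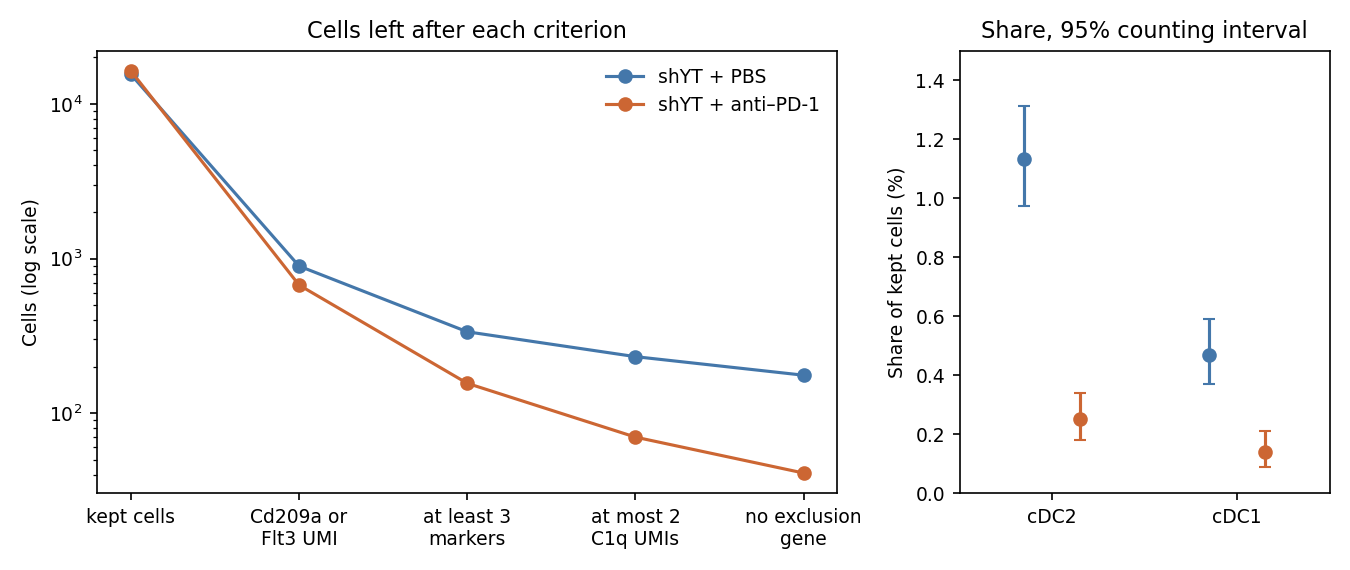
The left panel plots the number of cells (log scale) left after each criterion of the selection in the shYT PBS library (blue) and the shYT anti–PD-1 library (orange), and the right panel plots the share of kept cells that were cDC2 or cDC1, with exact 95% counting intervals. The lines part at every step after the first, down to 176 and 41 cells, and both dendritic cell shares lie lower in the anti–PD-1 library.

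The criteria did not act alike on the 2 libraries. A *Cd209a* or *Flt3* UMI was present in 894 PBS and 674 anti–PD-1 cells, 3 markers in 336 and 156, and 232 and 70 of these passed the limit on C1q. That limit removed 31.0% of the PBS and 55.1% of the anti–PD-1 cells that reached it, and the exclusion genes then removed 24.1% and 41.4%. *C1qa* and *C1qb* are macrophage genes, and they were also found in cells selected as T cells: 54.2% of PBS and 75.2% of anti–PD-1 T cells held a UMI of them, and 15.6% and 31.6% held more than 2, the limit used for cDC2. The part of such transcripts in the difference in share was not tested. With no limit on C1q the counts were 254 and 94 cells.

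Cells near the limits were common, more so after anti–PD-1. Among the selected cells, 33 PBS and 16 anti–PD-1 cells held exactly 2 C1q UMIs, and 20 further cells in each library held 3 and stood just outside. In the PBS library the cells with 2 and with 3 were close in the summed level of 7 genes shared by conventional dendritic cells (*Zbtb46*, *Itgax*, *Napsa*, *Ciita*, *H2-DMb2*, *Cst3*, *Bcl11a*), at 9066 and 9772 CPM (UMIs of the genes per 1000000 UMIs of the cells). In the anti–PD-1 library they stood at 5163 and 7507 CPM, so the cells outside were the higher ones, and without *Cst3* the values were 2658 and 2969 CPM (PBS) and 1366 and 1924 CPM (anti–PD-1). On the marker criterion, 80 PBS and 29 anti–PD-1 cells had exactly 3 markers, and 76 and 56 had 2 and stood outside. Their summed level was 8663 CPM inside and 5433 CPM outside for PBS cells, and 8139 and 5119 CPM for anti–PD-1 cells, or without *Cst3* 2445 and 1989 CPM, and 1949 and 1693 CPM. Only 12 anti–PD-1 cells had 4 or 5 markers, against 96 PBS cells. A selection that asked for 2 markers held 252 and 97 cells.

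Depth was similar. The cDC2 had a median of 6598.5 UMIs per PBS cell and 7325 UMIs per anti–PD-1 cell, and 2499.5 and 2356 detected genes. Their summed UMIs were 1216948 and 306929, so 3 UMIs, taken here as the floor below which a gene counts as not measurable, correspond to 2.47 and 9.77 CPM. The mitochondrial share was 3.46% and 4.38%. The 2 libraries shared 219 barcodes, none of them selected in both.

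The label was checked with lists of marker genes, summed over the selected cells, as a description. The 7 shared dendritic cell genes summed to 9567 and 7481 CPM in cDC2, against 2367 and 1932 CPM in all other kept cells and 20974 and 20967 CPM in cDC1. *Cst3*, a protease inhibitor gene of many myeloid cells, supplied most of this. The 6 genes other than *Cst3* summed to 2582 and 1880 CPM in cDC2, 1380 and 1023 CPM in cDC1, 245 and 164 CPM in macrophages and 299 and 311 CPM in all other kept cells. The 10 further cDC2 genes (*Sirpa*, *Irf4*, *Itgam*, *Klf4*, *Clec4a4*, *Esam*, *Rbpj*, *Notch2*, *Runx3*, *Clec12a*) summed to 1265 and 1346 CPM, against 901 and 835 CPM in all other kept cells. This list did not set cDC2 apart from other myeloid cells, since it stood at 1275 and 1243 CPM in macrophages and at 1171 and 1015 CPM in neutrophils. Of 14 macrophage genes all had UMIs, with a sum of 1412 and 1554 CPM in cDC2 and of 38072 and 23868 CPM in the other cells, but the selection limited 2 of them. Without *C1qa* and *C1qb* the sums were 1304 and 1394 CPM in cDC2, 32074 and 19027 CPM in the other cells, and 8215 and 5509 CPM in T cells, on which no C1q limit was set. cDC1 genes summed to 814 and 801 CPM over 8 of 10 genes, with *Xcr1* and *Clec9a* at 0 by the selection. Genes of mature dendritic cells summed to 102 CPM over 7 of 9 genes and to 205 CPM over 3 of 9, with *Fscn1* at 0 by the selection and *Nudt17* at 0 in both. *Tbc1d4* supplied most of the anti–PD-1 sum, at 50.9 and 186 CPM, whereas *Ccr7*, the receptor for migration to lymph nodes, had 1 and 4 UMIs.

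Neutrophil and monocyte genes differed in level between the cDC2 of the 2 libraries. The neutrophil list summed to 611 CPM over 7 of 8 genes in PBS cDC2 and to 2271 CPM over 6 of 8 in anti–PD-1 cDC2, mostly *S100a8* (268 and 1091 CPM) and *S100a9* (206 and 733 CPM), while *Ly6g* was at 0 in both. These sums were 0.966% and 3.71% of the level in cells selected as neutrophils. In T cells, which do not express them, the same list stood at 671 and 2999.5 CPM. The monocyte list summed to 1042 and 1720 CPM over 8 of 8 genes, against 1078 and 1157 CPM in T cells and 1096 and 1777 CPM in cDC1, with *Plac8* at 434 and 971 CPM, *Ms4a4c* at 254 and 472 CPM, and *Ly6c2*, the classical monocyte marker, at 95.3 and 88.0 CPM. Tumor and biliary epithelial genes went the other way, at 1359 and 596 CPM over 8 of 8 genes. With *Cd3e*, *Cd79a* and *Siglech* at 0 by the selection, T and NK cell genes (87.9 and 71.7 CPM over 8 and 6 of 9), B and plasma cell genes (449 and 606 CPM over 6 and 4 of 7), plasmacytoid dendritic cell genes (143 and 160 CPM over 6 and 5 of 9), hepatocyte genes (46.8 and 42.4 CPM over 4 and 2 of 5), stromal genes (71.5 and 65.2 CPM over 8 and 6 of 8) and pancreatic acinar genes (0 and 19.5 CPM over 0 and 3 of 7) were low in both. The part of these transcripts in the results below was not tested.

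The libraries also differed in sex-linked transcripts. In the PBS library 98 cDC2 held *Xist* (transcribed from the inactive X chromosome of females) and no Y-linked UMI, 28 held a Y-linked UMI and no *Xist*, 7 held both and 43 neither. In the anti–PD-1 library 30 held a Y-linked UMI, 11 held neither, and no cell held *Xist*. PBS cDC2 therefore came from animals of both sexes and no female cell was seen among anti–PD-1 cDC2, so for the cDC2 as a whole sex and treatment cannot be told apart. Values for the 98 PBS cells with *Xist*, the 28 PBS cells with Y-linked UMIs and the 30 anti–PD-1 cells with Y-linked UMIs are therefore given beside the main results, in this order, as *Xist* PBS, Y PBS and Y anti–PD-1 cells.

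Among the 5 markers of the selection, *Mgl2* stood apart. *Mgl2* encodes a galactose-type lectin (CD301b) of dermal and other cDC2 and lies on mm10 chromosome 11 from 70130329 to 70137550 on the forward strand. It had 723 UMIs in PBS cDC2 and 9 in anti–PD-1 cDC2, or 594 and 29.3 CPM, a log2 ratio of anti–PD-1 over PBS of -4.13 (-5.03 to -3.30). All log2 ratios here are of CPM after adding 5 CPM to both, which draws ratios of low genes toward 0. A UMI was present in 49.4% of PBS and 9.76% of anti–PD-1 cDC2, and in 0.901% and 0.682% of T cells, the background. With every cell thinned to 1000 UMIs, the shares of cDC2 were 29.0% and 2.44%. *Mgl2* was at 606 CPM in *Xist* PBS, 650 CPM in Y PBS and 37.3 CPM in Y anti–PD-1 cells, so both PBS classes were above the anti–PD-1 cells. The size of the ratio depended on the selection: it was -1.55 with the selection made on thinned cells, -1.70 with no limit on C1q, -3.28 with no C1q UMI and -4.34 with 3 of the 4 other markers asked for.

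The other 4 markers differed less. *Cd209a*, a DC-SIGN family lectin (mm10 chromosome 8, 3743397 to 3748984, reverse strand), was at 901 and 541 CPM (-0.73, -0.97 to -0.50) and had a UMI in 81.3% and 80.5% of cells. *Clec10a*, the lectin gene neighbouring *Mgl2*, was at 401 and 342 CPM. *Cbfa2t3*, a transcriptional corepressor of the lineage, was at 489 and 388 CPM. *Flt3*, the receptor for the growth factor on which dendritic cells depend, was at 235 and 251 CPM. Since these genes chose the cells, and since a cell low in *Mgl2* needs another marker to be selected, these values say how the selected cells were composed. When 3 of the 4 markers other than *Mgl2* were asked for, 151 PBS and 40 anti–PD-1 cells were selected.

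**Figure D2:**
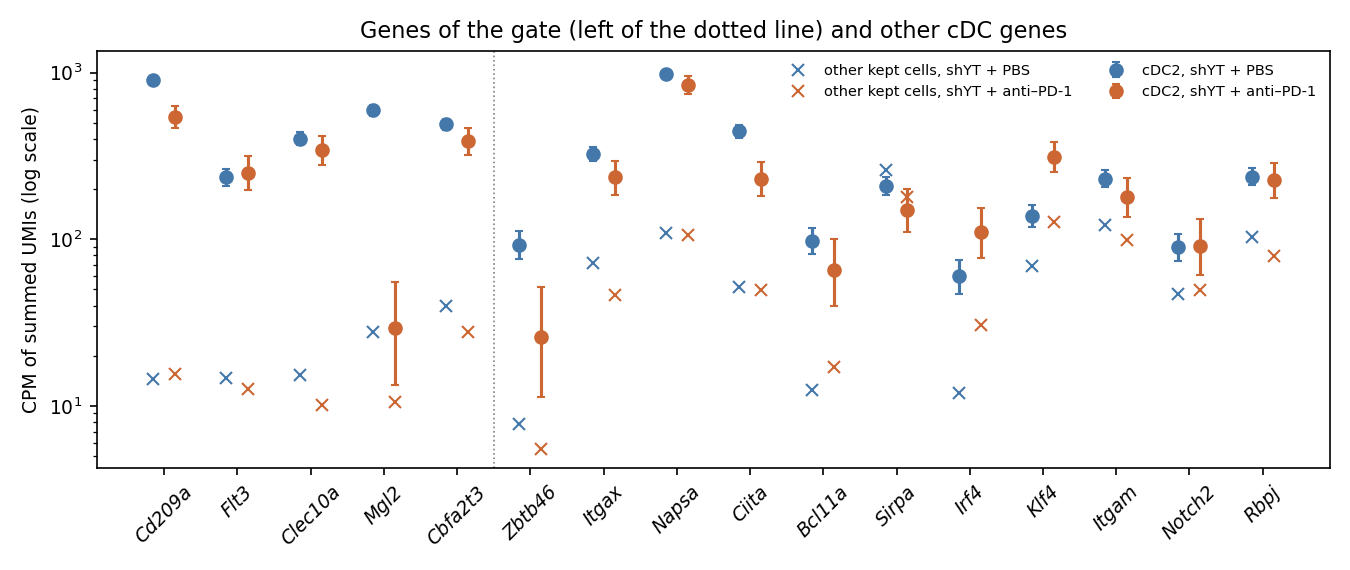
Levels of the 5 genes of the selection (left of the dotted line) and of 11 other dendritic cell genes are plotted as CPM of summed UMIs on a log scale, for cDC2 (circles with exact 95% Poisson intervals) and for all other kept cells (crosses) of the PBS (blue) and anti–PD-1 (orange) libraries. *Mgl2*, *Zbtb46* and *Ciita* lie lower and *Irf4* and *Klf4* higher in anti–PD-1 cDC2, and most of the plotted genes lie above the other cells, with *Sirpa* as the exception.

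Genes were compared with at least 30 UMIs over both libraries, and a gene was counted as higher or lower when its log2 ratio was at least 1 or at most -1. A gene with 0 UMIs in 1 library passed this minimum through the other library alone, so its fold is a description and was not tested. PBS cDC2 held 1216948 UMIs and anti–PD-1 cDC2 306929, so the minimum was more easily met through PBS counts. Of 6406 genes, 234 (3.65%) were higher and 577 (9.01%) were lower in anti–PD-1 cDC2, and the median log2 ratio was -0.15. These percentages are the background for every list below. The excess of lower genes sat among genes of few UMIs: with at least 100 UMIs, 96 were higher and 105 lower.

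Among the genes that were higher and not below the other cells of their library, 2 nuclear receptor genes ranked next after *Ighg3*, which is described last. *Nr4a3* (mm10 chromosome 4, 48045153 to 48086447, forward strand), an orphan nuclear receptor induced within minutes to hours of stimulation, was at 13.1 CPM in PBS and 371 CPM in anti–PD-1 cDC2 (4.37, 3.77 to 4.97). Its relative *Nr4a2* was at 53.4 and 674 CPM (3.54). *Nfil3*, a basic leucine zipper factor needed for the cDC1 lineage, was at 15.6 and 209 CPM (3.37). An *Nr4a3* UMI was found in 6.82% of PBS and 68.3% of anti–PD-1 cDC2, and in 4.95% and 36.1% of T cells, which were less deep. With cells thinned to 1000 UMIs, the shares were 1.14% and 29.3% of cDC2, and 1.76% and 13.5% of T cells. The others by rank were *Ccl4* (3.24), *Csrnp1*, an AXIN1-induced nuclear factor (3.14), the metallothionein *Mt2* (3.08), *Cd83* (3.06), *Ptgs2* (2.78), *Gla*, a lysosomal galactosidase (2.73), the ERK phosphatase *Dusp5* (2.66) and *Il1b* (2.54). Most of these genes were also higher in all kept cells other than cDC2. The ratios there were 2.62 for *Nr4a3*, 2.15 for *Nr4a2*, 2.59 for *Nfil3*, 1.41 for *Ccl4* and 2.63 for *Csrnp1*. They were 0.32 for *Mt2*, 1.60 for *Cd83*, 3.00 for *Ptgs2*, 0.54 for *Gla*, 2.69 for *Dusp5* and 2.76 for *Il1b*. *Ighg3*, an immunoglobulin heavy chain, headed the ranking at 0 and 53 UMIs, at least 70.0-fold higher against the floor of 3 UMIs, and all 53 UMIs came from 1 cell.

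Without the comparison with other cells, *G0s2* (0 and 48 UMIs, at least 63.4-fold higher) and *Slpi* (17.3 and 287 CPM, 3.71) joined the highest 5. Both are abundant in neutrophils, and in the other kept cells they were at 36.5 and 419 CPM and at 251 and 851 CPM. A single cell gave 72.9% of the *G0s2* and 68.2% of the *Slpi* UMIs of anti–PD-1 cDC2, and their levels were 5.96% and 10.3% of those in neutrophils of that library. Of the genes ranked with that comparison, other than *Ighg3*, some were above the neutrophil level of that library. These were *Nr4a2* (1122%), *Mt2* (592%), *Nr4a3* (486%), *Cd83* (275%), *Ccl4* (141%) and *Dusp5* (128%). *Csrnp1* (97.3%), *Gla* (92.9%), *Ptgs2* (71.2%), *Nfil3* (56.4%) and *Il1b* (38.3%) were below it. Other cells of that library held some of these genes at like levels. *Ccl4* was at 1557 CPM in macrophages and 1127 CPM in cDC2, and *Cd83* at 623 and 652 CPM. *Dusp5* was at 323 CPM in T cells and 192 CPM in cDC2. *Nr4a2*, *Mt2* and *Nr4a3* were lower in macrophages and T cells than in cDC2, but *Nr4a3* was at 588 CPM in cDC1 and 371 CPM in cDC2. The part of transcripts of other cells was not tested.

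The 12 genes with the lowest ratios included *Mgl2*, which the selection used. The others rested on 0 to 2 UMIs in anti–PD-1 cDC2 and their folds are loosely bounded. *AA467197*, the gene of a small mitochondrial protein, had 93 and 1 UMIs, a 23.5-fold ratio (4.11 to 936). The kinetochore gene *Cenpf* had 84 and 1 UMIs (21.2-fold, 3.70 to 847), *Kazn*, a cell junction gene, 85 and 2 (10.7-fold, 2.88 to 89.9), *Map11* 83 and 2 (10.5-fold, 2.81 to 87.9) and *Mfap3* 77 and 2 (9.71-fold, 2.60 to 81.6). The low values of *Cenpf* and *Kazn* were shared by the Y PBS cells: *Cenpf* was at 86.0, 5.16 and 4.14 CPM and *Kazn* at 71.7, 5.16 and 8.29 CPM in *Xist* PBS, Y PBS and Y anti–PD-1 cells, so neither was lower between Y cells by more than counting error. *Map11* was at 55.9, 108 and 4.14 CPM and *Mfap3* at 67.4, 72.2 and 4.14 CPM. Genes with no UMI in anti–PD-1 cDC2 included the histone demethylase *Kdm4c* (41 UMIs in PBS cDC2, at least 3.45-fold lower), the histone deacetylase *Hdac4* and the linker histone *H1f5* (31 UMIs each, at least 2.61-fold), and *Ptchd1* and *Zfp609* (30 UMIs each, at least 2.52-fold), all set against the floor of 3 UMIs. These genes passed the minimum of 30 UMIs through the PBS counts alone, and the counting error of the PBS counts is not part of these folds. *Xist* PBS cells gave 24 *Kdm4c*, 18 *Hdac4*, 20 *H1f5*, 17 *Ptchd1* and 20 *Zfp609* UMIs, but they also held 697561 of the 1216948 UMIs of PBS cDC2. *Hdac4* was at 25.8 CPM in both *Xist* PBS and Y PBS cells. The Y PBS cells held 2 UMIs of *Kdm4c*, *Ptchd1* and *Zfp609*, 4 of *H1f5* and 5 of *Hdac4*. A comparison with the 0 UMIs in Y anti–PD-1 cells therefore rests on few counts, and the counting intervals overlapped. *Chil3*, a chitinase-like gene of monocytes, had 105 and 2 UMIs (13.2-fold, 3.58 to 111), with 60.0% of the PBS UMIs from 1 cell, and was at 461 and 128 CPM in the other kept cells. It was at 24.4 CPM in *Xist* PBS, 0 in Y PBS and 8.29 CPM in Y anti–PD-1 cells, so it was not lower between Y cells.

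Transcription factors of the lineage did not move together. Of 16 factors 3 were higher (*Nfil3*, *Irf8* and *Klf4*) and 1 lower (*Zbtb46*), with a median of -0.02. In all kept cells other than cDC2, 2 were higher and 0 lower, with a median of 0.09, and the *Nfil3* ratio was 2.59. *Irf4*, which directs cDC2 function, was at 60.0 and 111 CPM (0.83, 0.24 to 1.40), and 38.2% of its anti–PD-1 UMIs came from 1 cell. *Klf4*, needed for a type 2 cytokine-promoting subset, was at 138 and 313 CPM (1.15, 0.79 to 1.51). *Irf8*, the cDC1 factor, was at 33.7 and 88.0 CPM (1.26, 0.58 to 1.92), below the other kept cells of either library. In *Xist* PBS, Y PBS and Y anti–PD-1 cells *Irf4* was at 64.5, 87.7 and 99.5 CPM. *Klf4* was at 128, 155 and 232 CPM and *Irf8* at 25.8, 15.5 and 78.7 CPM in the same classes. Between Y PBS and Y anti–PD-1 cells the counting intervals overlapped for *Irf4* and *Klf4*, and not for *Irf8*. *Zbtb46*, which sets conventional dendritic cells apart from monocytes, was at 92.9 and 26.1 CPM (-1.66, -2.62 to -0.76) and lower in Y anti–PD-1 cells (24.9 CPM) than in *Xist* PBS (103 CPM) and Y PBS cells (87.7 CPM). *Id2*, an inhibitor of E proteins, was at 1414 and 746 CPM (-0.92, -1.12 to -0.72). The myeloid factor *Spi1* (615 and 583 CPM), the Notch pathway genes *Notch2* (89.6 and 91.2 CPM) and *Rbpj* (237 and 228 CPM), and *Runx3* (122 and 124 CPM) had ratios between -0.08 and 0.03, with intervals that included 0.

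Genes of the interferon-γ response were higher in anti–PD-1 cDC2. Of 22 listed genes 20 were tested, and 11 of these were higher and 0 lower, against 3.65% and 9.01% of all genes. The median was 1.08, against -0.15 for all genes, 19 of 20 ratios were above 0, and in 16 the counting interval was above 0 too. *Irf1*, a transcription factor of the response, was at 85.5 and 159.6 CPM (0.86, 0.37 to 1.34). Effector GTPases made up much of the list: *Gbp2*, a guanylate-binding protein, was at 38.6 and 254 CPM (2.57, 2.07 to 3.07), *Gbp3* at 18.1 and 68.4 CPM (1.67), *Igtp* at 45.2 and 117 CPM (1.28), *Irgm1* at 81.4 and 173 CPM (1.04) and *Iigp1* at 5.75 and 88.0 CPM (3.11). *Tgtp1* (14.8 and 71.7 CPM, 1.95) and *Tgtp2* (21.4 and 52.1 CPM, 1.12) are near-identical copies between which reads could be split, so their separate values are uncertain.

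Within that list the T cell-attracting chemokines rested on few cells. *Cxcl9* was at 76.4 and 104 CPM (0.42, -0.16 to 0.98), with 62.4% and 56.2% of the UMIs from 1 cell in each library, and *Cxcl10* at 24.7 and 71.7 CPM (1.37), with 63.3% and 36.4%. *Psme2*, a proteasome activator subunit, was spread more evenly at 307 and 599 CPM (0.95, 0.69 to 1.21). *Socs1*, the feedback inhibitor of the pathway, had the only ratio below 0, at 28.8 and 16.3 CPM (-0.67, -1.79 to 0.44). *Cd274*, the gene of the PD-1 ligand PD-L1, was at 27.9 and 124 CPM (1.97, 1.33 to 2.59) in cDC2, and at 20.1, 31.0 and 133 CPM in *Xist* PBS, Y PBS and Y anti–PD-1 cells.

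The list as a whole kept its direction between cells of like sex-linked transcripts. Its median ratio was 1.66 for Y anti–PD-1 over Y PBS cells, over the 9 genes that reached 30 UMIs in these cells, and 1.05 for Y anti–PD-1 over *Xist* PBS cells over all 20 genes. Most of the list was thinly counted in the 28 Y PBS cells, where *Cxcl9*, *Cxcl10*, *Iigp1* and *Tgtp1* had 0 UMIs. The list's UMIs per 10000 UMIs of a cell had medians of 7.89 in *Xist* PBS, 10.05 in Y PBS and 14.8 in Y anti–PD-1 cells. Over all selected cells, the same measure had a median of 8.11 in PBS cDC2 (middle cells from 4.65 to 11.7 at the quartiles, all cells from 0 to 219.8) and of 15.2 in anti–PD-1 cDC2 (quartiles 9.27 and 28.8, all cells from 3.86 to 136). The ranges overlapped widely. The difference was also seen in other cells, where the median over the same genes was 0.85 in cDC1, 1.83 in macrophages, 0.63 in T cells and 1.46 in all kept cells other than cDC2.

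The promoters of 4 of these genes are shown because interferon-γ is known to act through the promoter elements GAS and ISRE, and the 4 genes do not all hold the same matches. The sequences are the 250 bases before the annotated start, from RefSeq on GRCm38.p6 (mm10), 5′ to 3′ on the strand of the gene, with matches to GAS (TTCNNNGAA, which reads the same on both strands) or ISRE (TTTC, any 2 bases and TTTC, on either strand) in capitals. *Gbp2* is at chr3:142620413-142620662 on the forward strand, *Tgtp1* at chr11:48992247-48992496 on the reverse strand, *Igtp* at chr11:58199306-58199555 on the forward strand and *Cd274* at chr19:29367188-29367437 on the forward strand.
Gbp2: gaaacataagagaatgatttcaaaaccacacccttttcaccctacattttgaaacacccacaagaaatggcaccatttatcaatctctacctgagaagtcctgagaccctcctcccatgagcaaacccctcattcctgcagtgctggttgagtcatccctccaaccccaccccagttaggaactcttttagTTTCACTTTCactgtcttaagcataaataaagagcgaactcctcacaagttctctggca
Tgtp1: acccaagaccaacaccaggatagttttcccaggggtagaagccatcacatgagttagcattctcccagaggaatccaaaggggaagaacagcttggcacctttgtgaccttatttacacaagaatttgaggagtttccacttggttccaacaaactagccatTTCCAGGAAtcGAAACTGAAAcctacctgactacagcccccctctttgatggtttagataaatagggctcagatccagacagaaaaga
Igtp: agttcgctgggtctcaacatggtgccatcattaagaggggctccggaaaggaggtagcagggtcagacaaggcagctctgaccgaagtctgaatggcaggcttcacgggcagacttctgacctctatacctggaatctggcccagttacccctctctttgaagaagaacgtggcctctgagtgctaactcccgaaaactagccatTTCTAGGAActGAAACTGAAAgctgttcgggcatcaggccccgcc
Cd274: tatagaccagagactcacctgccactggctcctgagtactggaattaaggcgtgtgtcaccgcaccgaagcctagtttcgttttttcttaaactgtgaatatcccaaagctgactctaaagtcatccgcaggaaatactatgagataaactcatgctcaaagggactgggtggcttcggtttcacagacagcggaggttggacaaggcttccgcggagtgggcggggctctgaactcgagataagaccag
*Gbp2* held 1 ISRE and 0 GAS matches, *Tgtp1* and *Igtp* held 1 of each side by side, and *Cd274* held none in this window although its level was also higher in anti–PD-1 cDC2. Promoters were found for 17 of the 22 listed genes, 20 promoters in all, and 8 (40.0%) held a GAS and 11 (55.0%) an ISRE match, against 7.02% and 2.98% of all 32851 promoters. A match is a description of letters and not a bound site.

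Type I interferon-stimulated genes, which restrict viruses, showed the same direction with a smaller median. Of 15 tested genes among 23 listed, 6 were higher and 0 lower, with a median of 0.58. *Isg15*, a ubiquitin-like modifier, was at 61.6 and 209 CPM (1.68, 1.20 to 2.15), *Ifit3*, an RNA-binding antiviral protein, at 12.3 and 68.4 CPM (2.08, 1.25 to 2.88) and the amplifying factor *Irf7* at 37.8 and 173 CPM (2.05, 1.50 to 2.60). *Ifit2* (1.90), the nucleic acid sensor *Zbp1* (1.54) and *Oasl2* (1.18) were the other 3. The brake *Usp18* stood apart from them at 35.3 and 22.8 CPM (-0.54, -1.58 to 0.45). In *Xist* PBS, Y PBS and Y anti–PD-1 cells *Isg15* was at 48.7, 77.4 and 170 CPM. *Irf7* was at 30.1, 67.1 and 137 CPM and *Ifit3* at 8.60, 31.0 and 74.6 CPM in the same classes. Between Y PBS and Y anti–PD-1 cells the counting intervals overlapped for these genes and for *Ifit2*. They did not overlap for *Zbp1* (31.0 and 133 CPM) and *Oasl2* (51.6 and 149 CPM). The list median was 1.78 in cDC1 and 1.53 in macrophages, and in cDC2 it was -0.57 among cells with 4 or 5 markers, of which only 12 were from the anti–PD-1 library. *Mx1* and *Mx2* of this list were not analysed here.

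Most genes of MHC class II presentation, the signature function of cDC2, had ratios slightly below 0. Of 14 tested genes 1 was lower and 0 higher, with 13 ratios below 0 and 9 intervals below 0. The median was -0.23, against -0.15 for all genes and -0.09 for all genes with at least 100 UMIs. The α and β chain genes *H2-Aa* (13925 and 11925 CPM, -0.22), *H2-Ab1* (13127 and 11182 CPM, -0.23) and *H2-Eb1* (12710.5 and 9663 CPM, -0.40) and the invariant chain *Cd74* (34955.5 and 33421 CPM, -0.06) were among the most abundant transcripts of the cells in both libraries. The peptide loading factor *H2-DMa* was at 1430 and 964 CPM (-0.57, -0.75 to -0.39). *Ciita*, the master activator of the class II genes, was at 444 and 231 CPM (-0.93, -1.29 to -0.57), and at 480, 289 and 236 CPM in *Xist* PBS, Y PBS and Y anti–PD-1 cells, so the difference within Y cells was the smaller. *March1*, a ubiquitin ligase that takes MHC class II off the surface, was the gene past the limit, at 172 and 74.9 CPM (-1.14, -1.78 to -0.56). The antigen-processing genes *Ctss* (2173 and 2075 CPM, -0.07) and *Ifi30* (1037 and 828 CPM, -0.32) complete the description. The list median was -0.21 in cDC1 and 0.16 in macrophages.

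MHC class I genes display peptides to CD8 T cells. None of 19 passed either limit, 16 ratios were above 0, 9 with an interval above 0, and the median was 0.35. *B2m*, the invariant light chain, was at 3652 and 3799 CPM (0.06, -0.04 to 0.15) and *H2-K1* at 1672 and 1909 CPM (0.19, 0.06 to 0.32). Larger ratios were in the processing genes: *Tap1*, a peptide transporter subunit, was at 161 and 248 CPM (0.61, 0.22 to 0.98), and the immunoproteasome subunits *Psmb9* at 273 and 414 CPM (0.59) and *Psmb10* at 144 and 228 CPM (0.65). The nonclassical *H2-T23* was at 472 and 717 CPM (0.60, 0.37 to 0.82). *Tapbp*, the loading chaperone tapasin, was at 152 and 121 CPM (-0.32, -0.85 to 0.17).

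**Figure D3:**
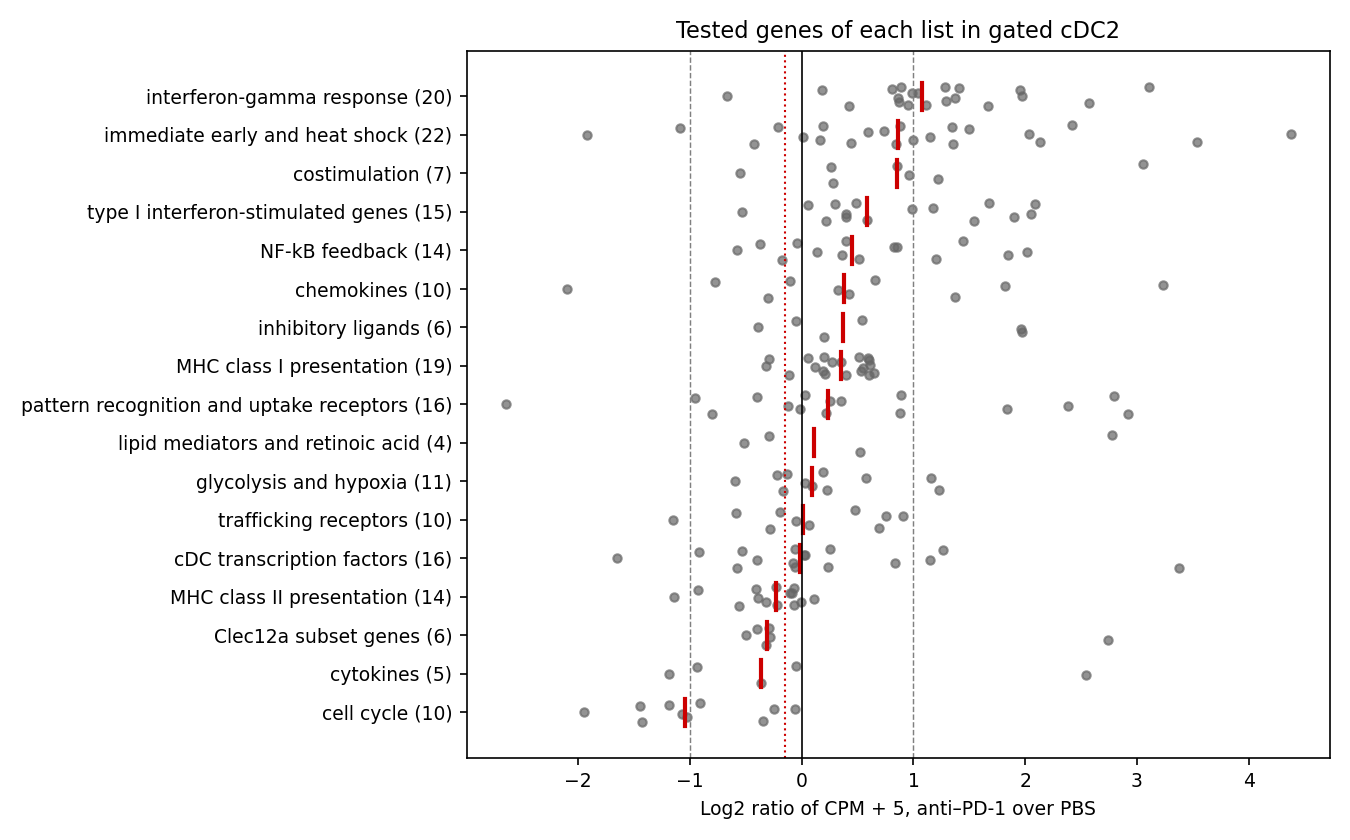
Each point is the log2 ratio (anti–PD-1 over PBS, CPM + 5) of 1 tested gene in cDC2, in rows by gene list with the number of tested genes in brackets, red bars mark list medians, the dotted red line marks the median of all 6406 genes and dashed lines mark -1 and 1. Among these lists, which have at least 3 tested genes each, the interferon-γ response list lies highest by median at 1.08, the cell cycle list lowest at -1.05, and MHC class II genes lie close to the median of all genes.

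Costimulatory genes, which decide whether a T cell that recognizes antigen is activated, were led by *Cd83*. Of 7 tested genes 2 were higher and 0 lower, with a median of 0.85. The list median was about the same in macrophages (0.85), T cells (0.84) and all kept cells other than cDC2 (0.94), and was -0.59 in cDC1. *Cd83*, which stabilizes MHC class II and CD86 on maturing dendritic cells, was at 74.0 and 652 CPM (3.06, 2.71 to 3.41), and *Tnfsf9*, the 4-1BB ligand, at 83.8 and 202 CPM (1.22, 0.76 to 1.67). *Cd80* was at 44.4 and 91.2 CPM (0.96, 0.31 to 1.59) and the adhesion ligand *Icam1* at 41.1 and 78.2 CPM (0.85, 0.16 to 1.51). *Cd86* (99.4 and 121 CPM), *Cd40* (41.9 and 52.1 CPM) and *Icosl* (78.9 and 52.1 CPM) had intervals that included 0. *Cd83* was at 68.8, 82.5 and 663 CPM in *Xist* PBS, Y PBS and Y anti–PD-1 cells, and *Tnfsf9* at 83.1, 82.5 and 133 CPM. The *Cd83* ratio was 1.39 in cDC1, 1.68 in macrophages, 1.42 in T cells and 1.60 in all kept cells other than cDC2. Without C1q UMIs, a selection of 78 PBS and 8 anti–PD-1 cells, the list median was 0.090 and the *Tnfsf9* ratio -0.55.

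Of 6 tested inhibitory ligands, 2 were higher and 0 lower, with a median of 0.37. Beside *Cd274* this was *Pvr*, the ligand of TIGIT and CD226, at 19.7 and 91.2 CPM (1.96, 1.23 to 2.66). *Lgals9*, the gene of galectin-9, was at 90.4 and 134 CPM (0.54, 0.01 to 1.04), *Vsir*, the gene of VISTA, at 129.8 and 97.7 CPM (-0.39, -0.97 to 0.15), and *Tgfb1* at 219 and 212 CPM (-0.05, -0.45 to 0.33).

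Cytokine genes were few. Of 17 listed, 5 were tested, 1 was higher and 1 lower, with a median of -0.37, which ranged from -0.54 to 0.34 over the alternatives, and *Il12a*, *Il12b* and *Ifnb1* had 0 UMIs in both libraries, which puts them under the floor of 2.47 and 9.77 CPM. *Il1b*, an inflammatory cytokine made as an inactive precursor, was at 231 and 1372 CPM (2.54, 2.33 to 2.76), and at 242, 186 and 1417 CPM in *Xist* PBS, Y PBS and Y anti–PD-1 cells. Its level in cDC2 was 15.2% (PBS) and 38.3% (anti–PD-1) of that in neutrophils of the same library. Macrophages held it at 116 and 880 CPM, and the part of transcripts of other cells in the cDC2 level was not tested. The ratio was 1.24 in neutrophils, and it was as large as in cDC2 in other cells, at 2.86 in T cells (38.0 and 307 CPM, with a UMI in 4.79% and 29.4% of them), 2.88 in macrophages and 2.76 in all kept cells other than cDC2. *Tnf* was at 65.7 and 26.1 CPM (-1.19, -2.17 to -0.27) on 80 and 8 UMIs, and in thinned cells the ratio was 0.16. *Il18* (29.6 and 13.03 CPM) and the IL-27 subunit *Ebi3* (81.4 and 61.9 CPM) had intervals that included 0.

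Chemokines split. Of 10 tested genes 3 were higher and 1 lower, with a median of 0.38, which was -0.20 among cells with Y-linked UMIs and -0.39 in thinned cells. *Ccl4*, an inflammatory CC chemokine, was at 115 and 1127 CPM (3.24, 2.96 to 3.52), whereas its close relative *Ccl3* was at 84.6 and 108 CPM (0.33, -0.25 to 0.87). *Cxcl2*, which draws neutrophils, was at 73.1 and 270.4 CPM (1.82), with 42.7% and 32.5% of the UMIs from 1 cell, and at 7.59% of the neutrophil level in the anti–PD-1 library. *Ccl17*, a ligand of CCR4 made by activated cDC2, was at 100.3 and 19.5 CPM (-2.10, -3.14 to -1.11) on 122 and 6 UMIs, and at 129, 46.4 and 12.4 CPM in *Xist* PBS, Y PBS and Y anti–PD-1 cells. With no limit on C1q its ratio was 0.65. *Ccl9* was at 205 and 117 CPM (-0.78, -1.30 to -0.29) and *Cxcl16* at 127 and 117 CPM (-0.11).

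Among 10 tested trafficking receptors, 0 were higher, 1 was lower and the median was 0.01. *Ccr2*, which brings monocytes and pre-dendritic cells out of the bone marrow, was at 187 and 81.5 CPM (-1.15, -1.76 to -0.58). It was at 206 CPM in *Xist* PBS, 36.1 CPM in Y PBS and 41.4 CPM in Y anti–PD-1 cells, so the Y cells of the 2 libraries were close and the *Xist* PBS cells stood above both. *Ccr1* was at 200.5 and 342 CPM (0.76, 0.42 to 1.08), the oxysterol receptor *Gpr183*, which positions cDC2 in lymphoid tissue, at 111 and 156 CPM (0.48, -0.01 to 0.94), and the integrin *Itgb7* at 326 and 342 CPM (0.07).

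Pattern recognition and uptake receptors gave 4 higher and 1 lower of 16 tested genes, with a median of 0.23. *Cd14*, a coreceptor for lipopolysaccharide, was at 46.8 and 355 CPM (2.80, 2.35 to 3.24), and the inflammasome sensor *Nlrp3* at 50.9 and 195 CPM (1.84, 1.34 to 2.34). The macrophage-inducible lectins *Clec4d* (9.04 and 101 CPM, 2.92) and *Clec4e* (9.04 and 68.4 CPM, 2.39) drew 41.9% and 57.1% of their anti–PD-1 UMIs from 1 cell and stood at 5.30% and 8.71% of the neutrophil level. *Cd14* stood at 16.1% of it and *Nlrp3* at 54.8%. *Tlr4*, the lipopolysaccharide receptor, had 32 and 0 UMIs, at least 2.69-fold lower. The inhibitory Fc receptor *Fcgr2b* was at 188 and 94.5 CPM (-0.96, -1.53 to -0.42) and *Tlr2* at 78.1 and 101 CPM (0.35, -0.24 to 0.91).

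Immediate early and heat shock genes, which are switched on by stimulation and also by tissue dissociation, were in part higher. All 22 were tested, 10 were higher, 2 lower, and the median was 0.86. Beside *Nr4a2* and *Nr4a3*, *Nr4a1* was at 221 and 1202 CPM (2.42, 2.19 to 2.64), the AP-1 and stress factors *Atf3* at 151 and 681 CPM (2.13) and *Fosb* at 104 and 443 CPM (2.03), and the antiproliferative gene *Btg2* at 400.2 and 1029.6 CPM (1.35). *Junb* (954 and 1763 CPM, 0.88) and the chaperone *Hspa1a* (302 and 544 CPM, 0.84) stayed under the limit. *Fos* was at 666 and 759 CPM (0.19, -0.03 to 0.40). In *Xist* PBS, Y PBS and Y anti–PD-1 cells *Fos* was at 667, 1161 and 688 CPM, so it was lower between Y cells. The 2 lower genes were classic members of the same group: *Egr1* was at 322 and 81.5 CPM (-1.92, -2.52 to -1.37) and *Jun* at 666 and 309.5 CPM (-1.09, -1.41 to -0.79). In the same 3 classes *Egr1* was at 264, 738 and 62.2 CPM, *Jun* at 618, 1047 and 269 CPM, and *Ier2*, also of the list, at 493, 681 and 402 CPM. *Nr4a1* (235, 242 and 1214 CPM) and *Atf3* (159, 191 and 688 CPM) were higher between Y cells. The group therefore did not move as 1 block.

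Per cell, the list's UMIs per 10000 had a median of 55.5 in PBS cDC2 (7.29 to 239.5) and of 135 in anti–PD-1 cDC2 (54.3 to 278), and the upper quartile of PBS cells, 103, lay at the lower quartile of anti–PD-1 cells, 103. Y PBS cells were intermediate, with medians of 50.8, 87.8 and 127 in *Xist* PBS, Y PBS and Y anti–PD-1 cells. The list median was 0.53 for Y anti–PD-1 over Y PBS cells and 0.45 for Y PBS over *Xist* PBS cells. It was 0.98 in cDC1, 1.42 in macrophages, 1.02 in T cells and 1.28 in all kept cells other than cDC2.

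**Figure D4:**
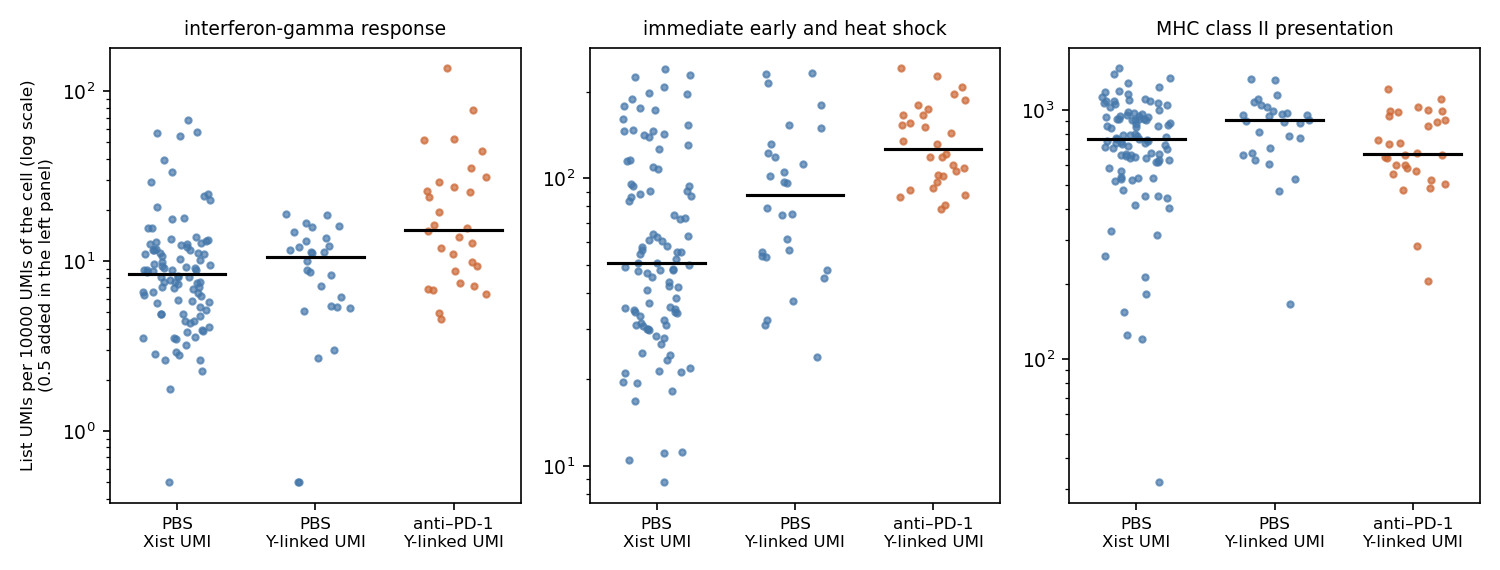
Each point is 1 cDC2, with UMIs of the interferon-γ response, immediate early and heat shock, or MHC class II list per 10000 UMIs of the cell on a log scale (0.5 added in the left panel), for 98 PBS cells with *Xist*, 28 PBS cells with Y-linked UMIs and 30 anti–PD-1 cells with Y-linked UMIs, and black bars mark medians. The interferon-γ medians are 7.89, 10.05 and 14.8, the immediate early medians 50.8, 87.8 and 127, and the MHC class II medians 767, 909 and 668, with overlapping points in each panel.

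Feedback genes of NF-κB were also higher in part, 4 of 14 tested with 0 lower and a median of 0.45. The list median was larger in macrophages (0.78), T cells (0.79) and all kept cells other than cDC2 (0.84), and was -0.25 in cDC1. *Nfkbiz*, an atypical nuclear inhibitor, was at 92.0 and 388 CPM (2.02, 1.65 to 2.38), *Tnfaip3*, the gene of the deubiquitinase A20, at 60.0 and 228 CPM (1.84, 1.38 to 2.30), and the subunit *Rel* at 98.6 and 277 CPM (1.44, 1.04 to 1.84). *Nfkb1* was at 288 and 254 CPM (-0.18, -0.54 to 0.17). In *Xist* PBS, Y PBS and Y anti–PD-1 cells, *Tnfaip3* was at 67.4, 77.4 and 219.6 CPM.

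Of the 4 tested genes of lipid mediators, *Ptgs2*, the inducible cyclooxygenase of prostaglandin synthesis, was at 36.2 and 277 CPM (2.78, 2.28 to 3.27), and *Alox5ap*, the 5-lipoxygenase activating protein, at 961 and 785 CPM (-0.29, -0.49 to -0.09), and the median was 0.11. Of 11 glycolysis and hypoxia genes 2 were higher and 0 lower, with a median of 0.09: hexokinase *Hk2* was at 48.5 and 121 CPM (1.23, 0.64 to 1.80) and the glucose transporter *Slc2a1* at 54.2 and 127 CPM (1.16, 0.59 to 1.71). *Ldha* was at 445 and 665 CPM (0.57, 0.34 to 0.81). The other 8 genes lay between -0.59 and 0.22.

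Summed levels of cell cycle genes were lower in the selected cells of the anti–PD-1 library. All 10 had ratios below 0 and 6 were past the limit, against 9.01% of all genes, with a median of -1.05. *Mki67*, a marker of cycling cells, was at 245 and 114 CPM (-1.07, -1.59 to -0.58), the topoisomerase *Top2a* at 159 and 55.4 CPM (-1.45), the ubiquitin-conjugating enzyme *Ube2c* at 89.6 and 19.5 CPM (-1.95), the survivin gene *Birc5* at 64.9 and 29.3 CPM (-1.03), cyclin *Ccnb2* at 65.7 and 26.1 CPM (-1.19) and *Stmn1* at 141 and 48.9 CPM (-1.43). The ribonucleotide reductase gene *Rrm2* was at 20.5 and 19.5 CPM (-0.06). A few cells weighed heavily: a single cell gave 66.7% of the *Ube2c*, 77.8% of the *Birc5* and 87.5% of the *Ccnb2* UMIs of anti–PD-1 cDC2. Cells with UMIs of at least 2 of the genes were 33 of 176 (18.8%, 13.3 to 25.3) and 7 of 41 (17.1%, 7.15 to 32.1). After thinning, the mean over 20 draws was 17.9 of 176 (10.1%) and 3.15 of 41 (7.68%), so no difference in the share of cycling cells was detectable at this depth. Y PBS cells over *Xist* PBS cells gave a list median of -1.03 and Y anti–PD-1 over Y PBS cells -0.11. With no limit on C1q, or with 2 markers asked for, the list median was 0.045 or 0.025.

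**Figure D5:**
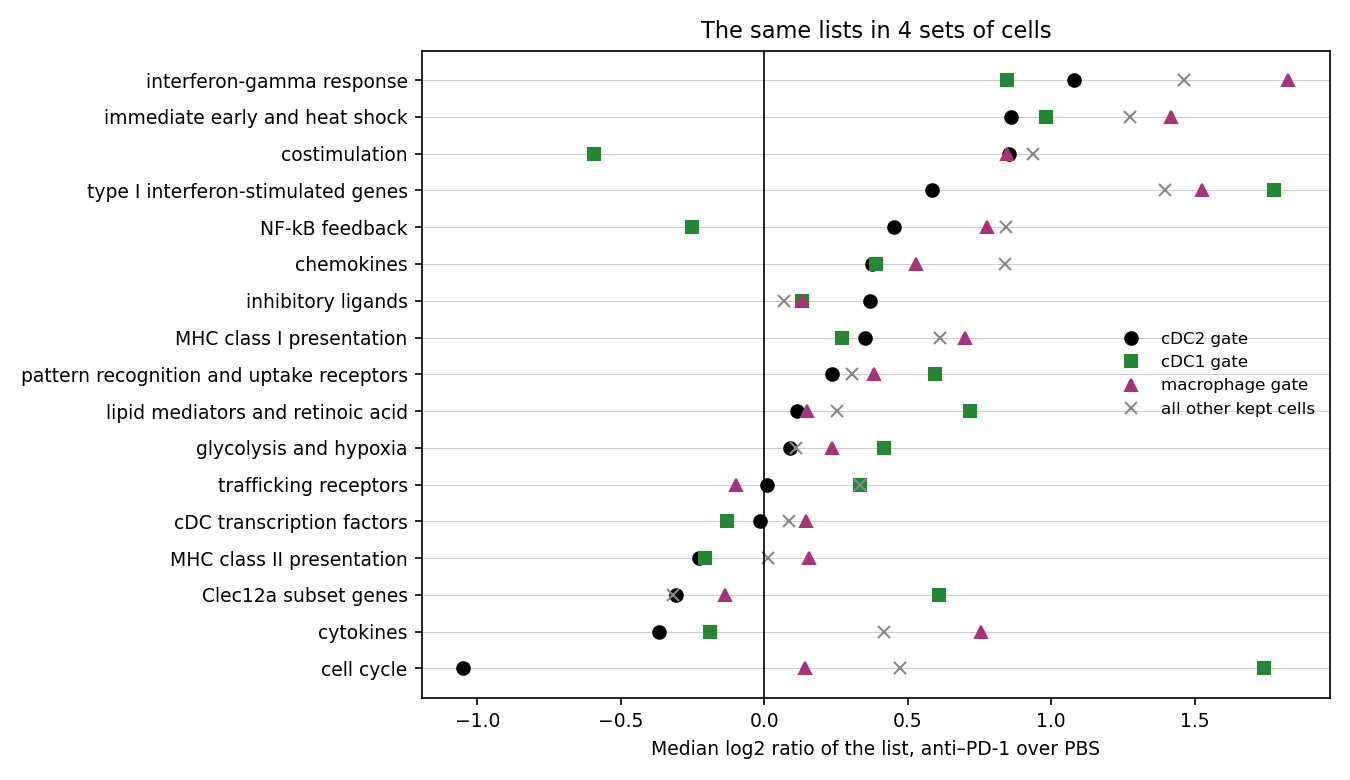
Median log2 ratios (anti–PD-1 over PBS) of the gene lists are plotted for cDC2 (black circles), cDC1 (green squares), macrophages (purple triangles) and all kept cells other than cDC2 (grey crosses), with lists in the order of the cDC2 median. Interferon and immediate early lists lie above 0 in all 4 sets, whereas the costimulation (0.85 and -0.59) and cell cycle (-1.05 and 1.74) medians of cDC2 and cDC1 lie on opposite sides of 0. The costimulation medians of macrophages (0.85) and of all kept cells other than cDC2 (0.94) lie close to that of cDC2.

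Genes known to mark subsets of cDC2 differed in how often they were seen. The subset marked by *Clec12a* and monocyte-like genes gave 1 higher of 6 tested genes and a median of -0.31. *Clec12a* was at 172 and 137 CPM (-0.32, -0.81 to 0.15), *Csf1r*, the macrophage growth factor receptor, at 182 and 127 CPM (-0.50), and *Cebpb*, a factor of emergency myelopoiesis, at 95.3 and 665 CPM (2.74, 2.42 to 3.06), which was 15.6% of the neutrophil level in the anti–PD-1 library. The lysozyme gene *Lyz2* was at 1293 and 1052 CPM (-0.30), with 20.2% and 52.6% of the UMIs from 1 cell. Of 7 genes of the *Esam* and T-bet subsets only *Mmp9*, a gelatinase abundant in neutrophils, reached 30 UMIs, at 17.3 and 58.6 CPM (1.52, 0.68 to 2.31), with 61.9% and 33.3% of the UMIs from 1 cell and a level of 7.75% of that in neutrophils of the anti–PD-1 library. It was at 4.30, 82.5 and 66.3 CPM in *Xist* PBS, Y PBS and Y anti–PD-1 cells, so the direction turned within Y cells (-0.30).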

How the data were processed

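Single-cell suspensions of tumor-bearing livers were made into libraries with the GEXSCOPE single-cell kit (V2), without hashtag labels for animals. The deposited values are counts of UMIs per gene and cell barcode, which the authors made with the Singleron Cell Scope software against mm10 (version, strand setting and handling of multimapped reads not given in the sources used here). Seurat 4.3 is named in the submitters' processing notes.

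The count matrices were read with Python 3.11.15, numpy 2.4.6, pandas 2.3.3 and scipy 1.17.1, and figures drawn with matplotlib 3.10.9. UMIs were summed over the selected cells of each library and divided by their total to give CPM, with exact Poisson intervals, and ratios took 5 CPM as pseudocount and a minimum of 30 UMIs. The ratio and its interval were run on simulated counts drawn with the Poisson error that the interval assumes. That checks the computation, and not how unevenly single cells hold the UMIs of a gene. Shares have exact Clopper-Pearson 95% intervals. All intervals and floors cover counting error only. Cells are not replicates and each group is 1 library, so no test was made and no p-value is given. cDC1, T cells, macrophages and neutrophils were selected by markers in the same way. Doublets were scored from simulated pairs with scikit-learn 1.9.0. The score gave no usable threshold in the anti–PD-1 library, so the top 6% in each were marked and left out only as an alternative. Gene positions come from GENCODE, which matched 32445 of 32589 listed genes.

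Genes named outside the lists were the 12 highest and 12 lowest ratios whose counting interval left out 0 and whose level was at least that of the other kept cells of the library where they were higher, passing over *Xist*, Y-linked, mitochondrial and unnamed genes, and the 5 highest and 5 lowest without the comparison with other cells. *Tbc1d4*, *Ly6c2* and single members of marker lists were named after their values were seen. The selection rule and the gene lists were chosen with earlier results of these data known. *Mx1*, *Mx2* and *Clec7a* were not analysed here, and some genes that the rule or the lists name are not reported here.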

Additional observations from a re-analysis of the deposited data

Results flagged for a closer look

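The following genes differed in direction between cDC2 and another set of cells in the same 2 libraries, with counting intervals on opposite sides of 0, and the difference itself was not tested. *Tnfsf9* had a log2 ratio of 1.22 (0.76 to 1.67) in cDC2 and of -2.18 (-3.49 to -0.84) in cDC1, the latter on 42 and 3 UMIs. *Tnf* was at -1.19 in cDC2 and at 1.33 in macrophages. *Egr1* was at -1.92 in cDC2 and at 1.46 in macrophages. Cell cycle genes also differed between cDC2 and cDC1, with *Top2a* at -1.45 and 1.32, *Birc5* at -1.03 and 3.00, *Ccnb2* at -1.19 and 1.92, and *Stmn1* at -1.43 and 1.56. The cell cycle list median was -1.05 in cDC2 and 1.74 in cDC1, which held 73 and 23 cells. In cDC2 this median was -0.11 between cells with Y-linked UMIs and turned direction in 2 alternative selections, and a single cell gave 77.8% of the *Birc5* and 87.5% of the *Ccnb2* UMIs of the anti–PD-1 library.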

How the results depend on the processing

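No paired analysis was possible because each group was 1 library. The difference in cDC2 share, -0.883 percentage points, kept its sign in every alternative run. It was -0.286 with the selection made on cells thinned to 1000 UMIs (51 and 10 cells), -0.453 with no C1q UMI (78 and 8 cells), -0.545 with at least 4 markers (96 and 12 cells), -1.17 among *Ptprc* cells, -1.51 among cells with Y-linked UMIs and none of *Xist* (28 and 30 cells), and -0.0258 without cells with 2 UMIs of another type, which left 4 and 0 cells and so no gene comparison. The genes higher and lower, 234 and 577, became 149 and 219 in thinned cells, 96 and 105 with at least 100 UMIs, and 499 and 1424 with at least 1 UMI, while the lower genes became 148 in cells with Y-linked UMIs, 364 for PBS cells with *Xist* alone against all anti–PD-1 cells, 371 with no C1q limit, and 163 with 20 CPM added. Higher genes were 28.9% of those counted, 40.5% in thinned cells, 54.2% in cells with Y-linked UMIs, 40.7% with no C1q limit, 49.8% with 20 CPM added and 47.8% with at least 100 UMIs.

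The medians of the interferon-γ list (0.92 to 1.66), the immediate early list (0.53 to 1.06, the lowest in cells with Y-linked UMIs) and the MHC class II list (-0.38 to -0.18) kept their sign in all alternatives, unlike those of cytokines (-0.54 to 0.34) and chemokines (-0.39 to 0.78), each over the genes that reached 30 UMIs in the cells it kept (9 of the interferon-γ list in cells with Y-linked UMIs, against 20) unless it changed that minimum. In thinned cells the type I interferon median was 0.025, costimulation 1.79 and pattern recognition receptors -0.40, with *Id2* at 0.052, *Tnf* at 0.16 and *Ccr2* at 0.065. With no C1q UMI the type I interferon median was 1.56, costimulation 0.090 and NF-κB feedback -0.0081, with *Irf4* at -0.29, *Tnfsf9* at -0.55, *Birc5* at 0.21 and *Ccnb2* at 0.090. With at least 4 markers the type I interferon median was -0.57 and MHC class I -0.054, with *Irf4* at -0.0094, *Oasl2* at -3.50, *H2-K1* at -0.10, *Tap1* at -0.071, *Ccl9* at 0.086, *Stmn1* at 0.56, *Lyz2* at 2.25 and *Csf1r* at 0.0018. In cells with Y-linked UMIs *Mki67* was at 0.082 and *Mmp9* at -0.30. The alternatives that follow were chosen after seeing the data. With no C1q limit the type I interferon median was 1.31 and the cell cycle median 0.045, with *H1f5* at 0.017, *Ccl17* at 0.65, *Top2a* at 0.089, *Ccnb2* at 0.21 and *Stmn1* at 0.00073. With at least 2 markers the cell cycle median was 0.025, *Top2a* 0.22 and *Stmn1* 0.83. For PBS cells with *Xist* alone *Lyz2* was at 0.57, and without the top cell *Ighg3* was at 0. The cause of these changes was not tested. The median of all genes lay between -0.22 and -0.03. With 41 anti–PD-1 cells, 1 cell can set the level of a gene of few UMIs.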
